A study of Mus musculus with 6 samples.

Results

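Axon guidance ligands and receptors are the secreted and membrane proteins by which cells attract or repel one another: the semaphorins with the plexins, the ephrins with the Eph receptors, the netrins with the Unc5 receptors, and the Slits with the Robos. The genes were taken from the table of counts by symbol, as protein-coding genes named *Sema3* to *Sema7*, *Plxna* to *Plxnd*, *Epha* and *Ephb*, *Efna* and *Efnb*, *Slit1* to *Slit3*, *Robo1* to *Robo4*, the netrins and netrin-Gs, and *Unc5a* to *Unc5d*. This gave 68 of the 43346 genes in the table, 37 in the ligand families and 31 in the receptor families. The rule uses gene symbols and biotype and no measured value, although it was proposed with earlier results of these data known.

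RNA was measured in MAFs, mouse adult fibroblasts cultured as primary cells from ear tissue (adult females, C57BL6/J), in 3 control and 3 senescent samples. The control MAFs were sham irradiated, and the senescent MAFs were exposed to 20 Gy of x-rays and collected about 21 days later. Both groups were wild type, were grown at 3% oxygen and were used at passages 3 to 8. Both also received 100 nM dexamethasone for 2 hours, which synchronizes circadian clocks, and were collected 12 hours after it, so every value below describes 1 time point in synchronized cells. The labels do not say whether samples of a group were separate cultures or animals. The p-values therefore set each difference against the spread between these samples, which may be technical, and may not hold for other cultures or animals.

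Semaphorins of class 3 are secreted and act on plexins, mostly through neuropilin coreceptors, whereas those of classes 4 to 7 are held in the membrane. Ephrins are membrane ligands of neighbouring cells, with the ephrin-As bound by a lipid anchor and the ephrin-Bs spanning the membrane, and their Eph receptors are receptor tyrosine kinases. Netrins and Slits are secreted proteins of the laminin-like and the leucine-rich repeat kind, bound by Unc5 and Robo receptors, and all of these families also act outside the nervous system, in vessels, bone, immune cells and skin.

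Promoter windows, from 250 bases before to 50 bases after a transcription start, were taken from RefSeq on the build GRCm38.p6 and matched 59 of the 68 genes by symbol. The ephrin-A genes *Efna1*, *Efna3* and *Efna4* lie side by side on chromosome 3, all on the minus strand, and their windows are shown because the neighbours moved in opposite directions (below). The windows are chr3:89280902-89281201, chr3:89322890-89323189 and chr3:89337979-89338278, the nearest to the gene start in the table, and CG pairs are in capitals. They held 20, 22 and 11 CG pairs, beside a median of 21 over the windows of the 59 genes and of 7 over all 32851 windows.

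Efna1: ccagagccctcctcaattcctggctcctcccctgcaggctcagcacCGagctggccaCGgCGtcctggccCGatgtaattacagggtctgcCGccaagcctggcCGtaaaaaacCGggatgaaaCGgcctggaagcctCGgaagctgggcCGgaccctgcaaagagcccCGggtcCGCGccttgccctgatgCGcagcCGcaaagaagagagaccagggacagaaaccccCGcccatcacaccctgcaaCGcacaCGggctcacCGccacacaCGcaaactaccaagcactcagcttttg
Efna3: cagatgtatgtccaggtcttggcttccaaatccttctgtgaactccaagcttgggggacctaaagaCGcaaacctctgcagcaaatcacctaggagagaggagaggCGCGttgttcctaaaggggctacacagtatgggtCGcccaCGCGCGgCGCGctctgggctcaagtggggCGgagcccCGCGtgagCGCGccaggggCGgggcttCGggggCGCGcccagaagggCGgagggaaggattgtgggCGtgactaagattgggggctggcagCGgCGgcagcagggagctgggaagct
Efna4: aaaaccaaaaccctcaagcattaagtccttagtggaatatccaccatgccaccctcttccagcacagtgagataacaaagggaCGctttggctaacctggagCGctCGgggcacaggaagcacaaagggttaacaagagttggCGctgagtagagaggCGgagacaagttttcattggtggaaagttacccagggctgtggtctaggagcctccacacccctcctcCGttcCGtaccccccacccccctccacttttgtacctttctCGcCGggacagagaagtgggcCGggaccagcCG

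The study named the E-box CACGTG, the site of the clock factor BMAL1, and the AP-1 site TGACTCA or TGAGTCA, so these letters were searched for on both strands. CACGTG reads the same on both strands, and TGACTCA and TGAGTCA are each other's reverse complement. An AP-1 site was found in 2 of the 59 genes (3.39%), *Sema4c* and *Sema6b*, beside 5.95% of all 27025 genes with a window. An E-box was found in 5 of the 59 (8.47%), *Epha8*, *Robo2*, *Sema3e*, *Sema4b* and *Sema6d*, beside 8.09% of all genes. Of the genes with higher RNA in senescent MAFs, 0 of 25 held the AP-1 site and 2 of 25 the E-box, and of those with lower RNA 2 of 20 and 1 of 20. The windows of 4 genes that passed the test are shown with the match in capitals, as a description of letters and not of binding. Those of *Sema4c* at chr1:36558332-36558631 (minus strand) and *Sema6b* at chr17:56133803-56134102 (minus strand) hold the AP-1 letters from positions -22 and -48 relative to the start. Those of *Sema3e* at chr5:14025026-14025325 (plus strand) and *Sema6d* at chr2:124089719-124090018 (plus strand) hold the E-box from positions 23 and -23. The *Sema6b* window belongs to an internal start, 6491 bases inside the gene as the table gives it, and the E-box windows of *Sema4b* and *Robo2*, not shown, likewise belong to other starts than the gene start in the table.

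Sema4c: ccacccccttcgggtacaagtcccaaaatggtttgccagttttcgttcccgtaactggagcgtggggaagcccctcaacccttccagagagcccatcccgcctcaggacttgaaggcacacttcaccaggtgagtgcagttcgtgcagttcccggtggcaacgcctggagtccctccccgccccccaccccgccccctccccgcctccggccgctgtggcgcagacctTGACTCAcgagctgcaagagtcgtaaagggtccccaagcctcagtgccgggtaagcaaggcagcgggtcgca
Sema6b: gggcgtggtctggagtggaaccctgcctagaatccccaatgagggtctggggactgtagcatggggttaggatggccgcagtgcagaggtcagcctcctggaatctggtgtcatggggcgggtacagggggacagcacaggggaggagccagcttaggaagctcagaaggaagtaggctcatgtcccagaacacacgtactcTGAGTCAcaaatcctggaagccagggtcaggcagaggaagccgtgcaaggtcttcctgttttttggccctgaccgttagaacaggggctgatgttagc
Sema3e: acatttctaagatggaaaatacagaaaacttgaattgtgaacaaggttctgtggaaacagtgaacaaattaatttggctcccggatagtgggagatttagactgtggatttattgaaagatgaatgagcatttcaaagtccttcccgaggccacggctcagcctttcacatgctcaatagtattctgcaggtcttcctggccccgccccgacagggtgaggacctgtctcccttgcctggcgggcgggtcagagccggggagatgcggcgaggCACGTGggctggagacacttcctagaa
Sema6d: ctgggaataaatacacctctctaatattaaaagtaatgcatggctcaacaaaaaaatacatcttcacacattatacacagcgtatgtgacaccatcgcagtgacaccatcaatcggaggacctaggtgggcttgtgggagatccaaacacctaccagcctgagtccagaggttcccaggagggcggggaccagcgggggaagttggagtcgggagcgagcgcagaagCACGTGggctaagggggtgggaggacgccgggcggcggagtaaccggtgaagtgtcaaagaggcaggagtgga

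Libraries held between 50288454 and 82229553 counts on genes, so that 3 counts stood for 0.0355 to 0.0613 CPM (counts per 1000000 counts of the library, scaled by the trimmed mean of M-values, TMM). Senescent sample 3 stood apart: log2 CPM fell by 0.389 for each 10 percentage points of transcript GC content in this library relative to the mean of all, while the slopes of the other libraries ran from -0.00235 to 0.163. The tested genes described here were richer in GC (median 56.1%) than all tested genes (49.6%), and senescent sample 3 had the lowest value of its group in 38 of 61 of them (62.3%), against 42.0% of all tested genes. Results are therefore also given without this sample, or with a term for GC content, where that moved them. Fibroblast markers summed to 63900 to 65834 CPM in control and 48234 to 53576 CPM in senescent samples, with 3 of 10 markers higher and 5 lower. *Dcn* went up from 56.6 to 643 CPM. The collagens *Col1a1*, *Col1a2* and *Col3a1* fell from 4435, 5612 and 3896 CPM to 763, 1531 and 971 CPM. Chondrocyte markers went from 4998 to 5560 CPM in sum to 359 to 445 CPM, with 8 of 8 tested markers lower. Neuron markers went from 40.6 to 42.7 CPM in sum to 49.9 to 58.9 CPM, with 7 of 9 tested markers higher and 1 lower. The lower one, *Map2*, fell from 26.3 to 8.11 CPM, and *Syp* was not called. *Rbfox3*, *Snap25* and *Nefl* were at 0 counts in the control samples. In the senescent samples they were at 5 to 13, 16 to 29 and 93 to 142 counts. Endothelial markers summed to 81.2 to 85.1 CPM in control and 15.6 to 16.6 CPM in senescent samples, but the control sum was mostly *Erg* (80.4 CPM on average, and 7.47 CPM in senescent samples), the 1 marker that was lower, while the other 5 of 6 tested were higher. Macrophage markers summed to 9.04 to 9.69 and 20.1 to 22.7 CPM (7 of 8 tested higher), and keratinocyte markers to 16.5 to 17.2 and 20.9 to 23.1 CPM (3 of 6 higher, 1 lower). Schwann cell or melanocyte markers summed to 48.7 to 52.3 and 40.6 to 44.0 CPM (3 of 5 lower), and skeletal muscle markers to 2.08 to 3.57 and 5.11 to 5.81 CPM (3 of 4 higher). The part of other cell types in the results below was not tested.

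To ask how these genes differed in senescent MAFs, the senescent samples were compared with the control samples. Irradiation, the senescent state and any difference in time in culture cannot be told apart in this comparison. Senescent MAFs had more RNA of *Slit2* and *Slit3*, of the netrins *Ntn1* and *Ntn4*, of the netrin-G *Ntng2* and of *Sema7a*, *Sema3c*, *Efnb2* and *Epha2*. They had less RNA of *Plxnb1*, *Epha3*, *Efnb1*, *Sema3f*, *Unc5c* and 3 of 5 EphB receptors. Of the 68 genes, 61 passed the filter on low counts, and 32 were higher and 21 lower in senescent MAFs at an adjusted p under 0.05 (edgeR's quasi-likelihood test, Benjamini-Hochberg over 17589 genes). These are 52.5% and 34.4% of those tested, beside 36.2% and 34.1% of all tested genes, of which 70.3% were called in all. At the threshold of the study's methods, an unadjusted p under 0.05 with a change of more than 2-fold, 24 were higher and 13 lower, or 39.3% and 21.3% beside 17.8% and 12.3% of all tested genes, of which 30.1% passed it in either direction. The 3 control and 3 senescent values did not overlap for 53 of the 61, beside 75.3% of all tested genes. The median change was 0.34 on the log2 scale, against 0.01 over all tested genes. In such bulk samples, fewer cells of a type and less RNA per cell cannot be told apart.

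Some of these genes passed the filter only through the senescent samples, where they had to be higher. Of the 56 that passed in the control samples alone, 28 were higher, 21 lower and 7 not called, and their median change was 0.17. The ligand and receptor families were then counted apart. Of 35 ligands tested, 22 were higher (62.9%) and 11 lower (31.4%), and 19 (54.3%) and 7 (20.0%) passed the 2-fold threshold. Of 26 receptors tested, 10 were higher (38.5%) and 10 lower (38.5%), and 5 (19.2%) and 6 (23.1%) passed the 2-fold threshold. Over all tested genes these shares were 36.2% higher and 34.1% lower, and 17.8% and 12.3% past the 2-fold threshold. *Epha5*, *Unc5d* and *Robo3* are among the receptors counted as higher at both thresholds, and *Ntng1* among the ligands. These genes passed the filter only through the senescent samples. With them counted, the shares of receptors called higher were near the background. The contrast of ligands and receptors is a count only, and no test of it was made.

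**Figure D1:**
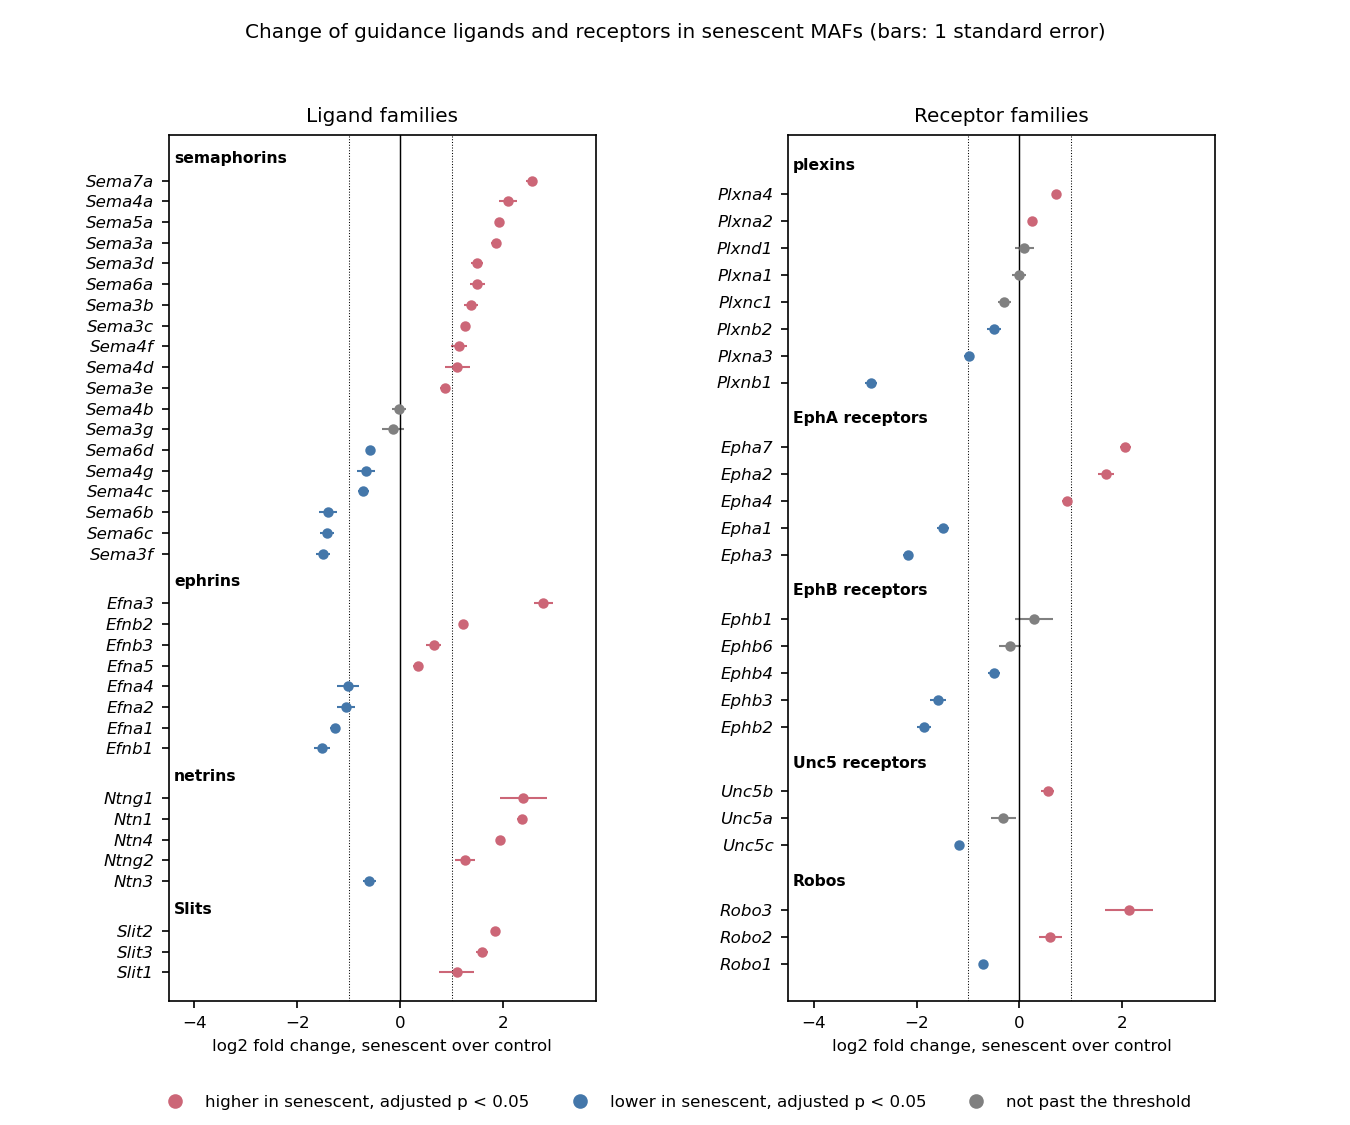
Log2 fold change of each tested gene, senescent over control, with bars of 1 standard error (n = 3 samples per group), ligand families on the left and receptor families on the right, and dotted lines at a 2-fold change. *Unc5d* and *Epha5* are left out because control samples held 0 or 1 count of them in sum. All 3 Slits and 4 of 5 netrins lie to the right of 0, while EphB receptors and class B plexins lie at or to the left of it except *Ephb1*. *Ntng1* and *Robo3* passed the filter only through the senescent samples.

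Semaphorins were the largest family, with 19 of 20 tested, 11 higher and 6 lower. Beside the counts of this and each later family stand the 36.2% higher and 34.1% lower of all tested genes. Among the secreted class 3, 5 of 7 were higher, 1 was lower and 1 did not pass. *Sema3c*, which signals through neuropilins and plexin-D1, was the most abundant semaphorin per length, at 15.9 ± 0.79 RPKM (CPM divided by the gene's exon length in kilobases, SD, n = 3) in control and 38.1 ± 4.59 RPKM in senescent samples. It was measured at 119.7, 110.0 and 109.9 CPM in control samples 1 to 3 and at 255.6, 250.3 and 309.5 CPM in senescent samples 1 to 3. All senescent values lay above all control values, with sample 3 the highest, and the change was 1.26 ± 0.09 on the log2 scale (SE, edgeR adjusted p = 9.32e-06). *Sema3a*, the repellent that collapses growth cones through neuropilin-1 and class A plexins, stood at 14.8, 15.1 and 13.9 CPM in control and 49.2, 50.3 and 59.8 CPM in senescent samples. It was 3.63-fold higher without overlap, or 1.86 ± 0.09 on the log2 scale (edgeR adjusted p = 1.12e-06). *Sema3d*, a relative that guides sensory axons and vessels, was lower in level, at 5.57, 5.30 and 5.48 CPM in control and 13.2, 15.3 and 17.6 CPM in senescent samples. Its senescent values were the most spread of these 3 genes and still stood clear of control, with a change of 1.499 ± 0.12 (edgeR adjusted p = 1.33e-05). *Sema3b* (1.38) and *Sema3e* (0.86) were higher as well.

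*Sema3f* moved the other way. This ligand of neuropilin-2 was the second most abundant class 3 semaphorin in control MAFs. Its values were 49.96, 56.2 and 56.0 CPM in control and 20.1, 22.0 and 15.04 CPM in senescent samples. They did not overlap, and *Sema3f* fell by 1.51 ± 0.14 on the log2 scale (edgeR adjusted p = 3.31e-05). Its share of the summed RPKM of class 3 went from 31.3 ± 2.12% to 6.11 ± 1.53% (SD, n = 3), while that of *Sema3c* went from 47.7 ± 2.26% to 62.5 ± 2.75% and that of *Sema3a* from 6.80 ± 0.28% to 13.5 ± 0.43%. *Sema3g*, at 0.407 and 0.365 CPM on average, did not pass the test (-0.15, edgeR adjusted p = 0.598).

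Among the membrane semaphorins that passed the filter, *Sema7a* changed the most. It carries a lipid anchor and binds plexin-C1 and β1 integrins. *Sema7a* was measured at 8.54, 7.66 and 7.85 CPM in control and at 50.6, 50.4 and 40.4 CPM in senescent samples. The groups were far apart, with senescent sample 3 the lowest of its group, and the change was 2.56 ± 0.11 on the log2 scale (edgeR adjusted p = 4.92e-07). *Sema5a*, which has thrombospondin repeats, stood at 17.0, 17.4 and 16.7 CPM in control and 60.5, 62.0 and 70.0 CPM in senescent samples. This was a 3.77-fold difference without overlap (1.91 ± 0.08, edgeR adjusted p = 3.11e-07). *Sema4a*, known from T cell priming and the retina, was sparse, at 1.00, 0.669 and 0.674 CPM in control and 3.59, 3.38 and 3.01 CPM in senescent samples. The control values were uneven, with sample 1 the highest, and the senescent values all exceeded them (2.09 ± 0.18, edgeR adjusted p = 2.13e-05). *Sema4d* (1.11), *Sema4f* (1.14) and *Sema6a* (1.499) rose too.

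Class 6, whose members act as ligands of class A plexins, was lower in 3 of its 4 genes. *Sema6c* was measured at 6.09, 6.74 and 5.62 CPM in control and 2.47, 2.47 and 1.95 CPM in senescent samples. *Sema6b* was measured at 4.59, 5.20 and 5.64 CPM and at 2.33, 2.09 and 1.48 CPM. Both were lower in every senescent sample than in any control sample, and they fell by 1.43 ± 0.13 (edgeR adjusted p = 3.30e-05) and by 1.40 ± 0.17 (edgeR adjusted p = 0.000190) on the log2 scale. *Sema6d* fell by 0.59, and in class 4 *Sema4c* fell by 0.72 and *Sema4g* by 0.66. *Sema4b* did not pass the test (-0.03, edgeR adjusted p = 0.860), but was called higher with the GC term (0.20, edgeR adjusted p = 0.0283). Within the summed RPKM of classes 4 to 7, *Sema4c* held 33.0 ± 1.19% in control and 12.0 ± 0.661% in senescent samples, and *Sema7a* 12.9 ± 0.819% and 45.4 ± 1.79%, so that the leading gene of these classes changed.

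All 8 ephrins were tested and all were called, 4 in each direction, where 70.3% of all tested genes were called. *Efnb2*, the ligand of EphB4 that marks arteries in the vascular system, was the most abundant ephrin by its mean over the 6 samples. Its values were 55.2, 57.6 and 58.2 CPM in control and 126.6, 132.6 and 137.7 CPM in senescent samples. They were tightly grouped and well apart, and the change was 1.21 ± 0.06 (edgeR adjusted p = 8.15e-07). *Efnb1*, which lies on the X chromosome and forms boundaries in the craniofacial skeleton, was measured at 92.1, 103.8 and 105.0 CPM in control and 38.9, 39.8 and 26.5 CPM in senescent samples. It fell by 1.52 ± 0.15 without overlap (edgeR adjusted p = 5.32e-05). The pair exchanged places: *Efnb1* held 68.1 ± 0.962% of the summed ephrin-B RPKM in control and 24.5 ± 4.59% in senescent samples, and *Efnb2* 31.0 ± 0.958% and 74.0 ± 4.70%. The ephrin-B sum itself overlapped between groups, at 42.6 ± 2.45 and 41.4 ± 1.38 RPKM. *Efnb3*, at 1.24 and 1.97 CPM, was higher by 0.65.

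In the ephrin-As the neighbours on chromosome 3 parted. *Efna3* had the largest increase among the genes with at least 100 counts on average. It was measured at 0.882, 0.837 and 1.14 CPM in control and 6.69, 7.53 and 5.43 CPM in senescent samples. The groups were far apart, with a 6.88-fold difference (2.78 ± 0.18, edgeR adjusted p = 4.63e-06), although 14.1% of its exon bases overlap an antisense gene and the strand setting of the counting is not given in the sources used here. *Efna1*, a ligand of EphA2, lies 32.8 kb away at chromosome 3, 89271733 to 89281142 (mm10), and stood at 39.5, 39.4 and 41.2 CPM in control and 17.7, 17.6 and 14.4 CPM in senescent samples. It fell by 1.27 ± 0.09 without overlap (edgeR adjusted p = 9.37e-06). *Efna4*, 10.4 kb on the other side of *Efna3*, fell by 1.02 (edgeR adjusted p = 0.00375), or by 0.76 without senescent sample 3, with 10.5% of its exon bases under an antisense gene. The log2 ratio of *Efna1* to *Efna3* was 5.48, 5.56 and 5.17 in control and 1.41, 1.23 and 1.41 in senescent samples. *Efna3* thus stayed below *Efna1* in CPM in every sample, with the gap narrowed in all 3 senescent samples. *Efna2*, on chromosome 10, was measured at 2.99, 3.36 and 3.39 CPM and at 1.88, 1.70 and 1.16 CPM, and fell by 1.05 ± 0.18 without overlap (edgeR adjusted p = 0.00110), or by 0.78 with the GC term. *Efna5* was higher by 0.34 (edgeR adjusted p = 0.00667) and held the largest share of ephrin-A RPKM in senescent samples (41.5%), where *Efna1* had held it in control (54.7%).

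**Figure D2:**
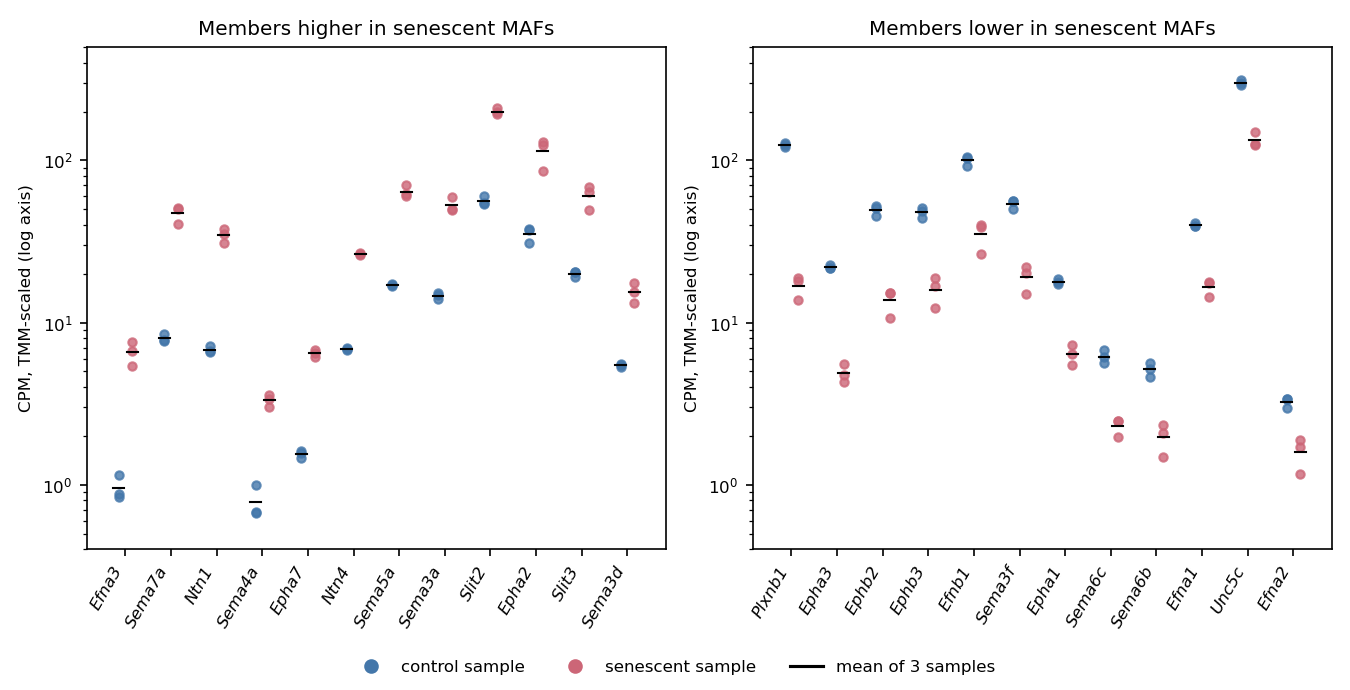
TMM-scaled CPM on a log axis in each control and senescent sample (points) with the mean of 3 samples (lines), for the 12 genes with the largest rise and the 12 with the largest fall among those over 2-fold and at a mean of at least 100 counts. The points of the groups do not overlap in these 24 genes, which were chosen for their large changes. Senescent sample 3 is often the lowest of its group.

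Netrins were higher in 4 of 5 tested, of which *Ntng1* passed the filter only through the senescent samples. *Ntn4*, a basement membrane netrin that binds laminin, was the most abundant per length by its mean over the 6 samples. It was measured at 6.86, 6.93 and 6.76 CPM in control and 26.7, 25.9 and 26.6 CPM in senescent samples. The samples of each group nearly coincided, and the difference was 3.85-fold (1.95 ± 0.07, edgeR adjusted p = 1.72e-07). *Ntn1*, the classical midline attractant, stood at 6.56, 7.13 and 6.64 CPM in control and 35.3, 37.9 and 31.1 CPM in senescent samples. It was 5.13-fold higher without overlap (2.36 ± 0.10, edgeR adjusted p = 3.86e-07). The lipid-anchored netrin-Gs *Ntng1* (2.39) and *Ntng2* (1.26) were higher, *Ntng1* from 0.0536 to 0.305 CPM, and *Ntng2* shares 14.0% of its exon bases with another gene on the same strand. *Ntn3* fell by 0.60 (edgeR adjusted p = 0.00422), and its share of the family's RPKM went from 28.2% to 5.99%.

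All 3 Slits were higher. *Slit2* and *Slit3*, large secreted repellents with many leucine-rich repeats, held nearly all of the family's RPKM in both groups, *Slit2* 52.5% and 57.0% and *Slit3* 46.7% and 42.5%. *Slit2* was measured at 59.9, 54.3 and 53.6 CPM in control and 192.4, 197.4 and 209.8 CPM in senescent samples. It was 3.57-fold higher with no overlap (1.84 ± 0.07, edgeR adjusted p = 2.42e-07). *Slit3* stood at 19.0, 20.5 and 20.5 CPM and at 63.4, 68.3 and 49.4 CPM. Sample 3 was the lowest of the senescent group and still well above every control sample (1.59 ± 0.12, edgeR adjusted p = 1.16e-05). *Slit1* was sparse at 0.325 and 0.696 CPM, and its rise of 1.09 (edgeR adjusted p = 0.0193) did not pass without control sample 1 (edgeR adjusted p = 0.0630), control sample 2 (0.0690) or senescent sample 2 (0.0628).

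On the receptor side, plexins had the highest summed level, and 2 of 8 tested were higher, 3 lower and 3 not called. *Plxnb2*, a receptor of class 4 semaphorins, led the family with 54.3 ± 3.12 RPKM in control and 38.5 ± 7.24 RPKM in senescent samples. Its values were 361, 402 and 397 CPM in control and 300.1, 307 and 215 CPM in senescent samples. They did not overlap, and it fell by 0.50 ± 0.13 (edgeR adjusted p = 0.0101), by 0.34 without senescent sample 3 and by 0.26 with the GC term. *Plxnb1*, the receptor of Sema4D, had the largest decrease of all 61 genes. It was measured at 121, 129 and 124 CPM in control and 18.0, 18.7 and 13.8 CPM in senescent samples. Control values were 7.41-fold higher on the fitted scale (-2.89 ± 0.12, edgeR adjusted p = 3.64e-07), and the share of *Plxnb1* in plexin RPKM went from 12.0 ± 0.360% to 2.16 ± 0.0296%. *Plxna3* fell by 0.98, and *Plxna2* (0.25) and *Plxna4* (0.72) rose, all by less than 2-fold. *Plxna1* (-0.01, edgeR adjusted p = 0.959) and *Plxnd1* (0.09, edgeR adjusted p = 0.678) did not pass in the full comparison. Without senescent sample 3 both were called higher, by 0.15 (edgeR adjusted p = 0.0130) and 0.30 (edgeR adjusted p = 0.00152), and likewise with the GC term, by 0.23 (edgeR adjusted p = 5.59e-05) and 0.39 (edgeR adjusted p = 0.000182). For *Plxna1*, 10.7% of the exon bases overlap an antisense gene. *Plxnc1* missed the threshold (-0.29, edgeR adjusted p = 0.0641) and passed it with the GC term (-0.30, edgeR adjusted p = 0.0462).

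EphA and EphB receptors, sorted by the ephrins they prefer, were counted apart. Of 6 EphA receptors tested, 4 were higher and 2 lower, and of 5 EphB receptors 0 were higher and 3 lower. The 4 include *Epha5*, which passed the filter only through the senescent samples. *Epha2*, a receptor of ephrin-A1 that is widely expressed in epithelia and tumours, was measured at 31.1, 37.8 and 37.2 CPM in control and 124.4, 129.5 and 86.3 CPM in senescent samples. Senescent sample 3 was the lowest of its group and above every control sample, and the change was 1.68 ± 0.16 (edgeR adjusted p = 3.97e-05). *Epha7* was sparse but even, at 1.60, 1.57 and 1.47 CPM and at 6.51, 6.11 and 6.79 CPM. It was 4.17-fold higher without overlap (2.06 ± 0.10, edgeR adjusted p = 9.83e-07). *Epha4* was higher by 0.92.

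*Epha3* and *Epha1* fell. *Epha3*, a receptor known from retinal mapping and mesenchymal cells, was measured at 22.5, 21.7 and 21.8 CPM in control and 4.76, 4.33 and 5.58 CPM in senescent samples. *Epha1*, the founding member of the family, was measured at 17.3, 17.7 and 18.5 CPM and at 6.39, 7.23 and 5.46 CPM. Neither overlapped between groups, and they fell by 2.17 ± 0.11 (edgeR adjusted p = 9.91e-07) and 1.48 ± 0.11 (edgeR adjusted p = 1.10e-05) on the log2 scale. *Epha2* held 41.4 ± 2.85% of EphA RPKM in control and 80.5 ± 3.57% in senescent samples, while *Epha1* went from 29.9% to 6.51% and *Epha3* from 21.4% to 2.99%.

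The EphB receptors were led by *Ephb4*, the receptor of ephrin-B2, with 12.2 ± 0.610 and 8.66 ± 1.45 RPKM. It was measured at 53.8, 59.4 and 56.9 CPM in control and 44.5, 43.6 and 32.4 CPM in senescent samples. The groups stayed apart by a small margin, and *Ephb4* fell by 0.50 ± 0.12 (edgeR adjusted p = 0.00644), by 0.36 without senescent sample 3 and by 0.23 with the GC term. *Ephb2*, a receptor at synapses and tissue boundaries, stood at 45.7, 51.2 and 52.1 CPM in control and 15.2, 15.3 and 10.7 CPM in senescent samples. *Ephb3*, its close relative in the intestinal crypt, stood at 44.1, 50.6 and 48.9 CPM and at 16.8, 18.8 and 12.2 CPM. Both were lower in every senescent sample, with sample 3 the lowest of all, and fell by 1.86 ± 0.14 (edgeR adjusted p = 1.21e-05) and 1.59 ± 0.15 (edgeR adjusted p = 4.33e-05). *Ephb6*, which lacks kinase activity, overlapped between groups (-0.19, edgeR adjusted p = 0.451), as did the sparse *Ephb1* (0.28, edgeR adjusted p = 0.522).

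Among the Unc5 receptors, which turn netrin signals into repulsion, *Unc5c* led in control MAFs. It was measured at 313, 289.5 and 298 CPM in control and 126.3, 124.6 and 149.4 CPM in senescent samples. All senescent values were far below the lowest control value, with sample 3 the nearest, and *Unc5c* fell by 1.17 ± 0.08 (edgeR adjusted p = 7.58e-06). *Unc5b*, known from vessel sprouting, rose by 0.55 (edgeR adjusted p = 0.00532) from 72.1 to 105.7 CPM. The order of the pair reversed, with *Unc5c* at 66.0 ± 1.90% of the family's RPKM in control and 37.7 ± 7.05% in senescent samples, and *Unc5b* at 33.0 ± 1.81% and 61.1 ± 6.84%. Senescent sample 3 was the nearest to control, with 45.8% and 53.2%. *Unc5a* did not pass the test (-0.31, edgeR adjusted p = 0.284).

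*Robo1*, a Slit receptor of neurons and mesenchyme, held 98.0% of the RPKM of its family in control and 93.8% in senescent samples. Its values were 57.3, 59.2 and 55.5 CPM in control and 34.1, 34.7 and 36.7 CPM in senescent samples. They were even within each group, and *Robo1* fell by 0.70 ± 0.06 (edgeR adjusted p = 2.07e-05) while *Slit2* and *Slit3* rose. *Robo2* overlapped between groups, at 2.26 and 3.43 CPM on average, and its rise of 0.60 (edgeR adjusted p = 0.0371) did not pass without control sample 2 (edgeR adjusted p = 0.0838), control sample 3 (0.104) or senescent sample 1 (0.0943). *Robo3*, at 0.130 and 0.615 CPM, passed the filter only through the senescent samples.

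Levels were next added over each family as RPKM, to see which ligands and receptors the cells held. Plexins and ephrins were the largest families in control MAFs, at 109 ± 5.36 and 82.6 ± 3.02 RPKM, and semaphorins (92.2 ± 1.95 RPKM) and plexins (81.7 ± 13.5 RPKM) in senescent MAFs. Semaphorins went from 52.1 ± 0.0603 RPKM to 1.77 times that sum. Netrins went from 4.74 ± 0.221 to 14.7 ± 0.844 RPKM and Slits from 7.06 ± 0.0867 to 23.3 ± 1.19 RPKM, ratios of 3.103 and 3.30. Without the netrin-Gs, netrins went from 4.25 ± 0.140 to 13.5 ± 0.618 RPKM. The sums of the receptors counted here went the other way, Unc5 receptors from 37.4 ± 0.494 to 29.4 ± 2.25 RPKM and Robos from 7.74 ± 0.278 to 4.96 ± 0.178 RPKM. By gene, *Unc5c* and *Robo1* fell while *Unc5b* rose, and the sparse *Robo2*, *Robo3* and *Unc5d* were called higher, within the limits given for each. The Robo sum was mostly *Robo1*, at 98.0% in control and 93.8% in senescent samples. EphA receptors went from 18.2 ± 0.721 to 29.99 ± 5.08 RPKM, and EphB receptors from 27.6 ± 1.78 to 15.6 ± 3.14 RPKM, with ephrins at 68.8 ± 2.87 RPKM in senescent samples. None of the 9 family sums overlapped between the groups. The sums are descriptions of RNA, without a test, and senescent sample 3 was the lowest of the 6 samples for plexins, ephrins, EphB receptors and Unc5 receptors.

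**Figure D3:**
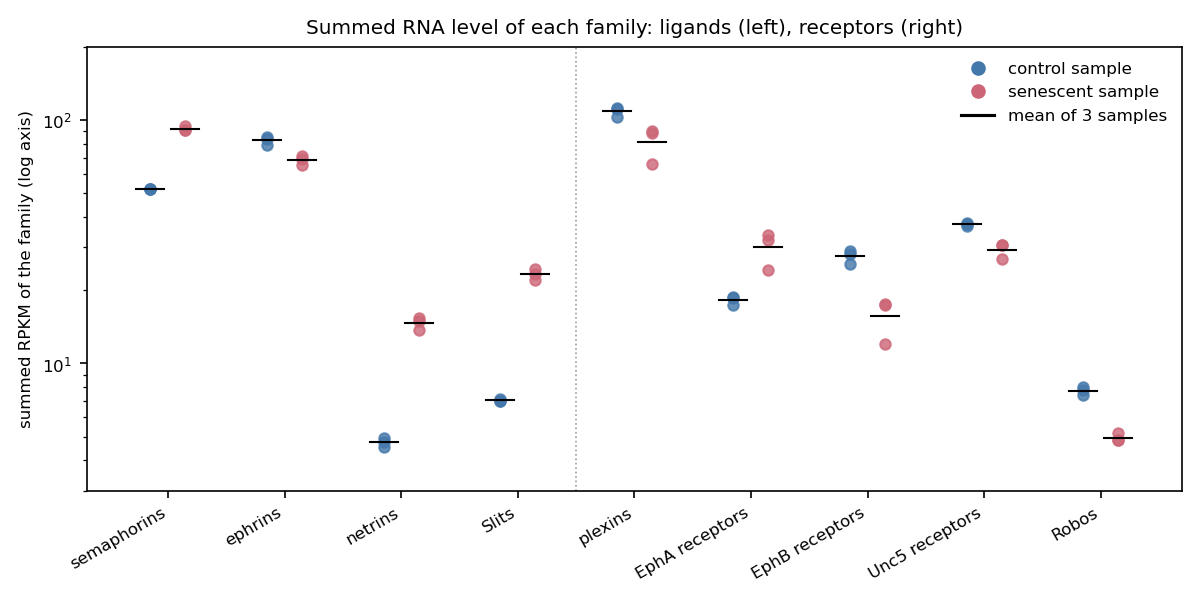
Summed RPKM of each family on a log axis in every sample (points) with the mean of 3 samples (lines), ligand families left of the dotted line and receptor families right of it. Semaphorins, netrins, Slits and EphA receptors are higher in all senescent samples, and ephrins, plexins, EphB receptors, Unc5 receptors and Robos are lower.

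**Figure D4:**
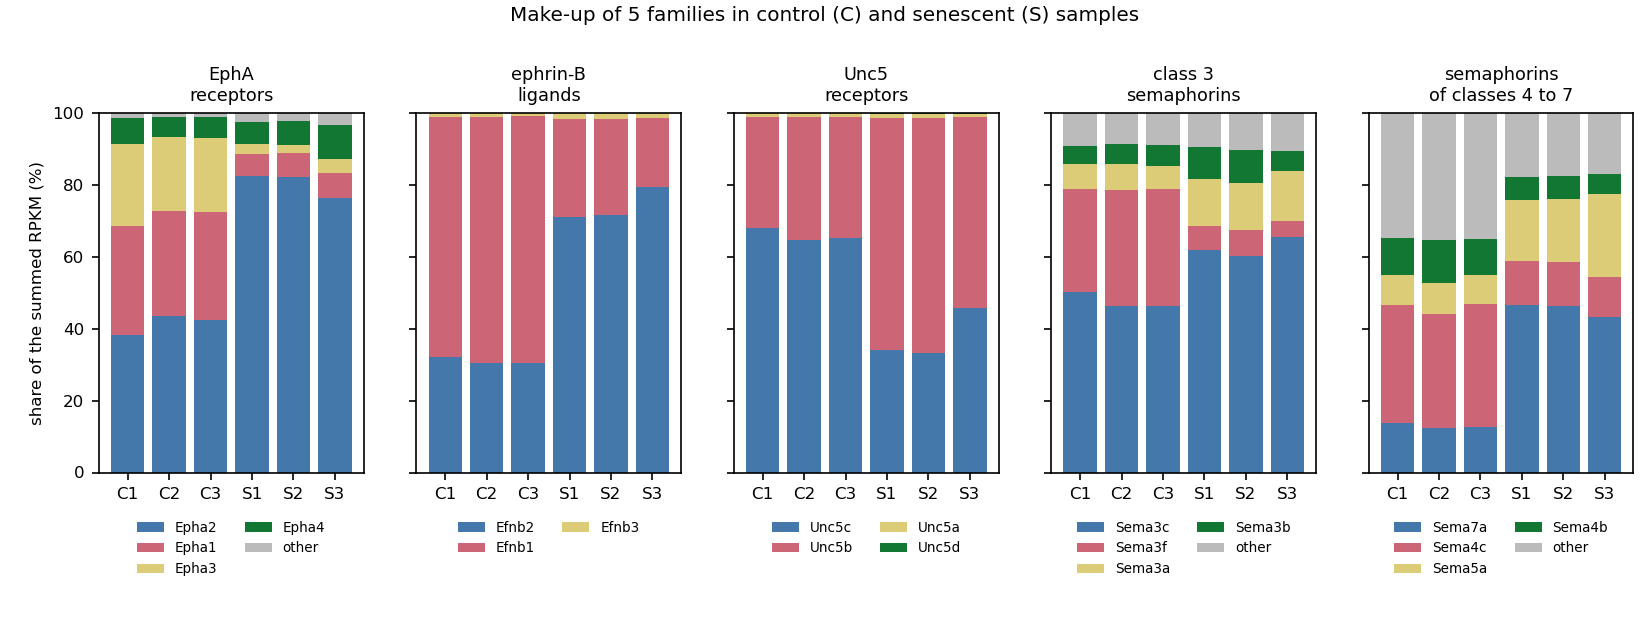
Share (%) of the summed RPKM of 5 families or classes held by their leading genes in control samples C1 to C3 and senescent samples S1 to S3. *Epha2* goes from 41.4% to 80.5% of EphA receptors, *Efnb2* from 31.0% to 74.0% of ephrin-B ligands, and *Unc5b* overtakes *Unc5c* in each senescent sample.

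Genes of a family that lie within 1 Mb of each other were compared. *Sema3b* and *Sema3f*, 72.3 kb apart on chromosome 9, diverged as the ephrin-As did. The log2 ratio of *Sema3b* to *Sema3f* was -2.63, -2.65 and -2.60 in control and 0.31, 0.20 and 0.26 in senescent samples, so the order of the pair in CPM reversed in all 3. *Robo1* and *Robo2*, 846 kb apart on chromosome 16, also differed in direction, with the limit on *Robo2* given above. *Sema3d*, *Sema3a* and *Sema3e*, in a row on chromosome 5 with gaps of 808 and 423 kb, were all higher.

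The genes differed widely in the length of genome they span, from 4.64 kb for *Efna4* to 952 kb for *Epha6*. Of the 19 tested genes that span up to 20 kb, 4 were higher and 13 lower, beside 29.9% and 36.0% of all tested genes of that span. Of the 27 that span over 100 kb, 20 were higher and 5 lower, beside 48.8% and 30.3% of all tested genes. The median log2 fold changes were -0.72 and 1.09 in these span classes, against -0.08 and 0.22 for all tested genes. The counts and medians include genes that passed the filter only through the senescent samples. These are *Robo3* in the class up to 20 kb, and *Epha5*, *Unc5d* and *Ntng1* in the class over 100 kb. GC content moved with the change as well. Of the 20 genes with the lowest GC (39.2% to 49.7%), 15 were higher and 4 lower, and of the 20 with the highest (57.3% to 63.5%), 7 were higher and 9 lower, while all tested genes in those ranges were higher in 42.2% and 24.0% and lower in 28.5% and 40.5%. With a term for the GC content of each library, 35 of 60 genes were higher and 21 lower, and no gene moved by more than 0.37 on the log2 scale. The part of span and GC content in the changes of single genes was not tested.

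**Figure D5:**
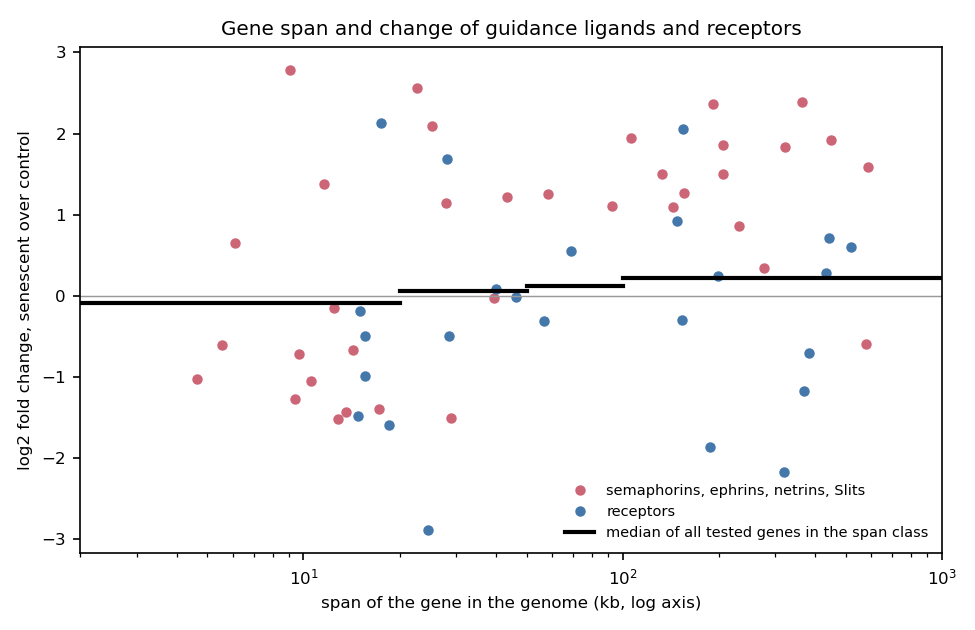
Log2 fold change, senescent over control, of each tested gene against the span of the gene in the genome (kb, log axis), with black lines for the median of all tested genes in the span class. *Unc5d* and *Epha5* are left out because control samples held 0 or 1 count of them in sum. Most points below 20 kb lie under 0 and most points over 100 kb lie above it.

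Some of these genes were near the limit of detection in control MAFs. *Unc5d* had 0 counts in the control samples together and 121 in the senescent samples together, at least 9.52-fold higher when 3 counts are allowed in each control library. *Epha5*, an EphA receptor of the brain, had 1 and 112 counts, a ratio of 81.1 with an exact 95% counting interval from 14.3 to 3230. Both were called higher, and both passed the filter only through the senescent samples, as did *Ntng1* and *Robo3*. *Sema5b*, below the filter, had 3 and 32 counts, a ratio of 7.72 (2.42 to 39.4), and *Epha6*, also below it, had 0 and 21, at least 1.66-fold higher. These intervals cover counting error only. The genes given a ratio or a bound were picked for at most 3 counts in the control samples together and more in the senescent samples. Higher values in the senescent samples therefore follow from that choice and are no evidence of a rise. The other genes below the filter held 0 to 13 counts in each library, namely *Epha8* (5 to 13), *Epha10* (0 to 6), *Ntn5* (0 to 4), *Plxnb3* (0 to 5) and *Robo4* (0 to 4), and nothing is said of their direction.

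The partners of these ligands and receptors were examined through a list of 25 coreceptors, repulsive guidance molecules and adhesion partners. Of 21 tested, 9 were higher (42.9%) and 11 lower (52.4%), beside 36.2% and 34.1% of all tested genes, and the median change was -0.34 against 0.01. The neuropilins, coreceptors of class 3 semaphorins, were both lower, *Nrp2* from 159 ± 5.73 to 42.2 ± 0.930 CPM (-1.91, edgeR adjusted p = 6.96e-08) and *Nrp1* from 313 ± 12.1 to 164 ± 12.6 CPM (-0.93, edgeR adjusted p = 1.14e-05). *L1cam*, an adhesion molecule that complexes with neuropilin-1, went from 186 ± 1.98 to 25.1 ± 1.60 CPM (-2.89, edgeR adjusted p = 2.58e-08). Its relative *Nrcam* went from 0.465 ± 0.110 to 61.6 ± 3.06 CPM, a change of 7.06 ± 0.13 (edgeR adjusted p = 1.29e-08). *Dag1*, the dystroglycan that binds Slits, fell by 1.06, and *Lrrc4*, a netrin-G ligand, fell by 4.05 from 2.88 to 0.165 CPM. *Lrrc4c*, the netrin-G1 ligand, rose by 2.13, *Cntn1*, a neural adhesion molecule, by 3.00, *Rgmb*, a neogenin ligand, by 1.88, and *Flrt2*, a ligand of Unc5 receptors, by 1.65 to 334 ± 42.6 CPM. *Dcc*, the netrin receptor of neurons, named here after its values were seen, had at most 6 counts in any library and was not tested.

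Of 54 intracellular effectors listed, 53 were found by symbol and tested, with 21 higher (39.6%), 15 lower (28.3%) and a median change of 0.12. These shares were near the 36.2% and 34.1% of all tested genes. *Mical2*, an actin-disassembling enzyme of the MICAL family of semaphorin effectors, went from 70.7 ± 0.989 to 367 ± 12.3 CPM (2.37, edgeR adjusted p = 2.58e-08), and *Rnd1*, a small GTPase that binds plexins, from 12.7 ± 0.873 to 92.0 ± 11.8 CPM (2.85, edgeR adjusted p = 3.04e-07). *Ablim3*, an actin-binding LIM protein, rose by 1.72. The collapsin response mediators, which relay Sema3A signals to microtubules, split: *Crmp1* rose by 5.87 from 0.0519 to 3.09 CPM and *Dpysl3* by 0.94, whereas *Dpysl4* fell by 1.90 and *Dpysl2* by 0.99. The remaining one, *Dpysl5*, named here after its values were seen, was sparse and called higher, at 0.0505 and 0.253 CPM on average (edgeR adjusted p = 0.00242). *Arhgef15*, an exchange factor linked to Eph receptors, fell by 2.51, *Farp2*, an exchange factor of plexin-A signaling, by 0.86, and *Srgap2*, a Slit-Robo GTPase activator, by 0.53. Whether these RNA levels were matched by protein was not measured here.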

How the data were processed

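Stranded mRNA libraries made from 200 ng of RNA gave paired reads of 100 bases. Within the MAPRSeq pipeline the authors aligned them by STAR (build mm10), assigned them to genes by Subread, and deposited raw counts. The treatment of multimapping reads and the annotation release are not given in the sources used here.

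From the counts, genes were kept by filterByExpr (at about 0.173 CPM, 17589 genes), scaled by TMM and tested between groups by edgeR 4.0.16 in R 4.3.3 (two-sided, quasi-likelihood, robust, group as the only term), with Benjamini-Hochberg adjustment over all tested genes. An exact permutation test of 3 against 3 samples cannot give p under 0.1 and was not used. RPKM used TMM-scaled counts and the gene length in the table. Transcript GC content and exon overlaps came from GENCODE M21 (GRCm38). The fits were tested on simulated data, where the main test recovered 196 of 200 changed genes among 17295 tested, with 11 false calls. Only those 200 genes changed there, by 2-fold or more, and all genes were given the same spread. Genes with the lowest counts were not among those changed. In the data 70.3% of tested genes were called, so the simulation does not cover that setting, smaller changes or the lowest counts.

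The genes and lists were chosen with earlier results of these data known. Values per sample are given for up to 12 genes in each direction with the largest change among those past an adjusted p of 0.05, over 2-fold and at a mean of 100 counts, and for the leading gene of each family by mean RPKM. Of each partner list, up to 5 genes in each direction with the smallest p are named. Alternatives were RLE scaling, library size alone, other filters, the exact test, DESeq2 1.42.0, a replicate term, each sample left out, and, chosen after seeing the data, a GC term.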

Additional observations from a re-analysis of the deposited data

How the results depend on the processing

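Across 14 alternatives, including the GC term chosen after seeing the data, between 28 and 36 of the 68 genes were called higher and 21 were called lower in each. At the 2-fold threshold of the study, 20 to 28 were higher and 11 to 14 lower. Leaving out each sample in turn gave 30 to 34 higher and 21 lower at the adjusted p, and 23 to 25 higher and 11 to 14 lower at the 2-fold threshold. The 29 genes given per sample kept their direction and their call in all 406 values. Calls changed for *Slit1* and *Robo2*, which were lost in 3 of 6 fits with a sample left out, and for *Plxna1*, *Plxnd1*, *Plxnc1* and *Sema4b*, gained as given above. Scaling by library size alone moved the median of all genes to 0.09 on the log2 scale. The replicate numbers are not shown to pair the samples, since deviations of same-numbered samples correlated at -0.145, 0.135 and -0.120, and no sample is known to share a culture with its number. With the replicate block, 32 genes were higher and 21 lower, and 5964 and 5660 of all genes in place of 6360 and 6005. Sparse genes such as *Slit1*, *Ntng1* and *Robo3* rest on few counts, and 3 samples per group at 1 time point limit every comparison.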
